A study of Mus musculus with 474 samples.

Results

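The genes described here are the potassium channel genes of mouse skeletal muscle, taken as every gene of the deposited tables whose symbol is Kcn followed by letters and a number. There were 70 such genes among 20612, and 66 of them passed the filter on low counts that left 18823 genes for testing. The rule used names only and no measured value. Kcnj4, Kcnj6, Kcnk4 and Kcnh8 did not pass the filter, with mean levels between 0.0236 and 0.0429 CPM (counts scaled to 1 M, or mega, counts of the library), and get no test.

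RNA was sequenced from the gastrocnemius muscle, so named in the study's methods, of female and male Diversity Outbred mice, an outbred stock from 8 inbred founder strains in which each animal is genetically distinct. All were adult animals on a high-fat, high-sugar diet and no group had another diet. The labels place 48 females and 46 males in generation 17 of the stock, 45 and 48 in generation 18, 49 and 50 in generation 19, 46 and 47 in generation 21, and 47 and 48 in generation 23. Generations 17 and 23 are not named in the study's methods, and the labels were followed. Each animal gave 1 library, so the replicate is the animal. Whole muscle was used, and in such bulk tissue fewer cells of a type and less RNA per cell cannot be told apart.

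Potassium channels let potassium leave the cell and so set the resting voltage and end the action potential. Voltage-gated pore subunits (Kcna, Kcnb, Kcnc, Kcnd, Kcnh and Kcnq) open on depolarisation, and silent subunits (Kcnf, Kcng, Kcns and Kcnv) form no channel alone but modify other voltage-gated channels. Inward rectifiers (Kcnj) and leak channels (Kcnk) act at rest. Calcium- and sodium-activated channels (Kcnma, Kcnn and Kcnt) respond to ions inside the cell, and Kcnu was counted with them by symbol and not by gating. Auxiliary subunits (Kcnab, Kcne, Kcnip and Kcnmb) alter the gating or surface level of pore subunits. In skeletal muscle, inward rectifiers hold the fibre near its resting voltage together with chloride channels, and the ATP-sensitive channel of Kcnj11 links excitability to metabolism.

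Library totals ran from 35.9 M to 165.7 M counts with a median of 79.3 M, at which 3 counts correspond to 0.0378 CPM. Markers of skeletal muscle summed to a median of 129621 CPM in females and 132139 CPM in males, against 0.12 and 0.178 CPM for the neuron list, of which 3 of 4 genes were in the tables. The heart muscle list, with 3 of 4 genes in the tables, had medians of 14.8 and 12.9 CPM and reached 79.3 CPM in females and 58.5 CPM in males, with 1 of 2 tested genes lower in males. Of the liver list 1 of 3 genes was in the tables, with medians of 0.189 and 0.142 CPM, up to 763.4 CPM in a female library and 19.8 CPM in males, and it was lower in males. Sex-linked RNA went against the label in 5 libraries (3 labelled female and 2 labelled male). Leaving them out left 42 of 66 members called for sex, the same count as with them, where 54.8% of all genes were called. Marker lists moved with sex: all 8 slow-fibre markers and 7 of 8 adipocyte markers were lower in males (1 adipocyte marker was higher), as were 6 of 9 denervation markers (2 were higher), while 4 of 5 vascular smooth muscle, 5 of 6 endothelial and 5 of 5 pericyte markers were higher. The summed slow-fibre level ran from 619.2 to 9946 CPM in females and from 884 to 8212 CPM in males, and the summed adipocyte level from 437.3 to 2167 and from 371.98 to 1456 CPM. The part of the endothelial and pericyte lists in the sex differences was not tested.

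The first comparison asked how much of each channel this muscle held. Levels between genes are given per length, as CPM per kb of exon (mean ± SD over all animals). Kcna7, a voltage-gated subunit known from skeletal and heart muscle (chromosome 7, 45405653 to 45409763, GRCm38), was the most abundant at 64.7 ± 9.37 CPM per kb. It held 36.04% of the summed level of the family and stood 3.10 times above the second gene, and it exceeded that gene in 100% of animals. Kcnc4, a fast voltage-gated subunit, followed at 20.8 ± 5.66, then the inward rectifier Kcnj12 at 15.3 ± 3.11, the ATP-sensitive pore subunit Kcnj11 at 12.8 ± 2.26 and Kcnc1 at 11.4 ± 2.54 CPM per kb.

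Lower down came the inward rectifier Kcnj2 at 8.81 ± 3.28, the slow voltage-gated subunit Kcnq5 at 7.79 ± 2.94, the silent subunit Kcng4 at 6.19 ± 3.84, the large-conductance calcium-activated channel Kcnma1 at 3.23 ± 0.557 and the small-conductance channel Kcnn1 at 2.79 ± 0.36 CPM per kb. From Kcnc4 to Kcnj2 the neighbours in this order differed by less than the sum of their SDs, and the higher gene of a pair led in 71.1% to 82.3% of animals. Kcnj2 stood above Kcnq5 in 55.3% of animals and Kcnn1 above Kcnj8 in 55.7%, so these neighbours could not be ordered beyond the spread between animals. Of the 70 members 18 overlap another gene, and the use of strand in counting was not stated, so reads of the overlapping gene may be in their values. They include Kcnq5, Kcnn1, Kcnab1, Kcnab2, Kcnk2, Kcnk3, Kcnj13, Kcnq1, Kcnt2, Kcnh7, Kcnip4, Kcnmb2 and Kcnd2.

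The 7 most abundant members held 78.9% of the summed CPM per kb. By role, voltage-gated pore subunits held 65.8%, inward rectifiers 22.3%, silent subunits 4.86%, calcium- and sodium-activated channels 3.88%, auxiliary subunits 1.71% and leak channels 1.35%. A mean of at least 10 CPM was reached by 13 members and a mean of at least 1 CPM by 28, and 42 lay under 1 CPM, 11 of them under 0.1 CPM. A count above 0 was found in every library for 40 members. Kcne3, an auxiliary subunit known to pair with Kcnc4 in muscle, had a mean of 0.269 CPM.

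**Figure D1:**
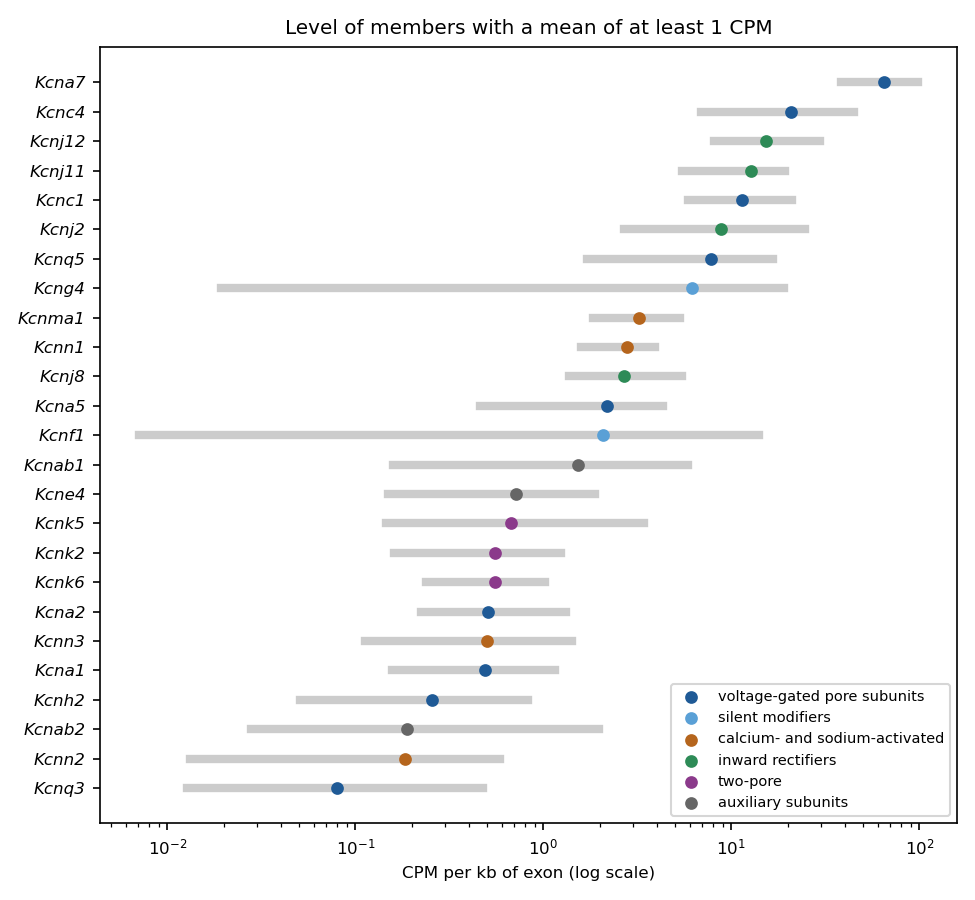
Mean level of 25 of the 28 members with at least 1 CPM, in CPM per kb of exon on a log axis (points, coloured by role), with grey bars from the lowest to the highest library. Kcna7 stands at 64.7 CPM per kb, and the bars of Kcng4 and Kcnf1 are the longest.

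Promoter sequences are shown for the most abundant member and for the largest sex differences in each direction among members with an entry in the RefSeq table (GRCm38.p6), which held 50 of the 70. Each runs from 250 bases before to 50 bases after the annotated start on the gene's strand, and capitals mark CG dinucleotides, whose density separates CpG island promoters from others. Kcna7 (most abundant) lies on the + strand at chr7:45405710-45406009, Kcnf1 and Kcna10 (largest rises in males) on the - strand at chr12:17176839-17177138 and on the + strand at chr3:107182893-107183192, and Kcna3 and Kcnd2 (largest falls with an entry) on the + strand at chr3:107035912-107036211 and chr6:21215096-21215395.
Kcna7: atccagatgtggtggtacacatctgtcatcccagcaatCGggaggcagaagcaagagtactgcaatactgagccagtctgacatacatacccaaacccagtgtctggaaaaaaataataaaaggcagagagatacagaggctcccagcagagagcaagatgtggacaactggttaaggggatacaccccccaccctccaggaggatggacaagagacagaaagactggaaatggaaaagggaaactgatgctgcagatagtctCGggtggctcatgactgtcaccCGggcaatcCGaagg
Kcnf1: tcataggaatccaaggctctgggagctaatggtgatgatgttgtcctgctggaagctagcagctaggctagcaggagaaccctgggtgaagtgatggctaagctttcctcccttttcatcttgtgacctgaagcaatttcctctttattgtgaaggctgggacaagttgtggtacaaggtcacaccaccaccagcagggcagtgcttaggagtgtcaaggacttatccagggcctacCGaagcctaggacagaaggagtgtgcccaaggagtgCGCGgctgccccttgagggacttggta
Kcna10: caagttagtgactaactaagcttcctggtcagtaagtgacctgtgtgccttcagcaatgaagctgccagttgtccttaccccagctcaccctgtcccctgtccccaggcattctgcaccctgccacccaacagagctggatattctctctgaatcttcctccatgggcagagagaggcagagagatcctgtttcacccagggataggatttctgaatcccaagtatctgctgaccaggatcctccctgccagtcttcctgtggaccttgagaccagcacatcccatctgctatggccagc
Kcna3: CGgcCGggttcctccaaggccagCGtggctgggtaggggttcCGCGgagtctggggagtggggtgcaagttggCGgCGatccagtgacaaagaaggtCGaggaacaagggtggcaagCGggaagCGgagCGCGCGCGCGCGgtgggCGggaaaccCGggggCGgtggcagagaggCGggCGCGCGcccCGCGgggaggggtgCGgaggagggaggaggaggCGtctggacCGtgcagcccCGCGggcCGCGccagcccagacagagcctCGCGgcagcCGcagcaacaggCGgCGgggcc
Kcnd2: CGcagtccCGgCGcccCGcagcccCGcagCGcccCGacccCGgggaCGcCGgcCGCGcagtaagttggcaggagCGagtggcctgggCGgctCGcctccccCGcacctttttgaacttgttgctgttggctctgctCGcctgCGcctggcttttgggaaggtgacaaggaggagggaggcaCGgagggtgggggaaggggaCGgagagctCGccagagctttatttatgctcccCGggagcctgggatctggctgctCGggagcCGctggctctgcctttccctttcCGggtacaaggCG

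The Kcna7 window had 4 CG dinucleotides, Kcnf1 had 3 and Kcna10 had 0, against 37 in Kcna3 and 26 in Kcnd2. The RefSeq start of Kcna7 lies downstream of the gene start given with its level. The whole Kcna7 window therefore lies inside the gene as given there, and the sequence before that start was not examined. The ratio of observed to expected CpG was 0.145 in Kcnf1 and 0 in Kcna10, 0.952 in Kcna3 and 0.74 in Kcnd2, and the median of 27025 promoters of all genes was 0.389 (members: 0.473). Not all members followed this order: the male-higher Kcnj3 and Kcnk1 had ratios of 0.408 and 0.589, and the male-lower Kcnc2 had 0.265. Of the 50 member promoters, 13 (26%) held the E-box CAGCTG, a motif that muscle regulatory factors can bind, against 16.1% of all promoters, and 6 (12%) held AGAACA, the core of a steroid receptor half-site, against 19.02%. The TATA box TATAAA was found in 2 (4%) against 14.2% and the MEF2-type motif in 1 (2%) against 3.70%. Both strands were searched, and these counts are descriptions with no test. For members the start nearest to that of the gene model was taken, and for all genes the first entry of each. Median GC content was 60.7% in member promoters and 52.7% in all, and its part in the motif shares was not tested.

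The next comparison asked which channel genes differ between females and males. Of the 66 members tested, 42 passed the threshold (adjusted p under 0.05), which is 63.6%, where 55% of all genes tested did so. Higher levels in males were found for 21 members (31.8%, background 24.4%) and lower levels for 21 (31.8%, background 30.6%). A difference of at least 1.5-fold was reached by 11 members (16.7%, background 5.30%), and 10 of these 11 had a mean under 1 CPM. Among genes with a mean of at least 1 CPM, 1 of 28 members reached 1.5-fold (3.57%, background 2.50%), and among genes under 1 CPM 10 of 38 did (26.3%, background 11%). The median size of the log2 difference was 0.21 over the members and 0.09 over all genes tested.

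Most of the abundant channels differed little. Kcna7 had a median of 140.8 CPM in females (lowest 83.8, highest 210.7) and 140.3 CPM in males (95.8 to 214.9), with a log2 difference, male minus female, of 0.00 ± 0.02 (SE, adjusted p = 0.999). Kcnc4 fell by 0.20 on the log2 scale (SE 0.03, adjusted p = 1.72e-07), from a median of 79.7 CPM in females to 70.4 CPM in males, and the groups overlapped widely. Kcnc1 (-0.11 ± 0.03, adjusted p = 0.000498), Kcnj11 (-0.13 ± 0.02, adjusted p = 1.76e-07), Kcnma1 (-0.05 ± 0.02, adjusted p = 0.0435) and Kcnn1 (-0.05 ± 0.02, adjusted p = 0.00574) were also lower in males. Kcnj12 (-0.05 ± 0.03, adjusted p = 0.106), Kcnj2 (0.10 ± 0.05, adjusted p = 0.0707) and Kcnq5 (-0.11 ± 0.05, adjusted p = 0.0653) did not pass the threshold.

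Among the silent subunits, 4 of 7 were higher and 2 lower in males (background 24.4% and 30.6% of all genes). Kcnf1 (chromosome 12, 17172100 to 17176888) had a median of 2.37 CPM in females (lowest 0.0339, highest 27.6) and 12.1 CPM in males (lowest 0.0867, highest 67.6), and 92.9% of males lay above the female median. Its log2 difference was 2.15 ± 0.13 (4.45-fold, adjusted p = 6.76e-49), the largest of the family, although the ranges of the sexes overlapped. Kcng1 had a median of 0.0819 CPM in females (0 to 0.387) and 0.194 CPM in males (0 to 0.658), with a log2 difference of 1.15 ± 0.11 (adjusted p = 2.63e-21). Kcnv2 had a median of 0.204 CPM in females (0 to 1.56) and 0.373 CPM in males (0.045 to 1.90), with a log2 difference of 0.80 ± 0.10 (adjusted p = 8.72e-14). Kcng4, the most abundant of these subunits, was higher in males by 0.46 ± 0.11 (adjusted p = 0.000108), and Kcns3 (-0.24 ± 0.07, adjusted p = 0.00072) and Kcns1 (-0.44 ± 0.19, adjusted p = 0.0383) were lower.

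Among the voltage-gated pore subunits, 6 of 24 were higher and 9 lower in males, shares near the background of 24.4% and 30.6%. Kcna10 (chromosome 3, 107183056 to 107195721) had a median of 0.0263 CPM in females (0 to 0.377) and 0.0882 CPM in males (0 to 1.30), with a log2 difference of 1.43 ± 0.17 (adjusted p = 2.08e-15), but the median counts behind these levels were 2 and 7. Of the fast-firing Kcnc class, Kcnc1 and Kcnc4 fell as given above, and Kcnc2 fell from a median of 0.512 CPM (0.0963 to 1.79) to 0.345 CPM (0 to 1.19), a log2 difference of -0.67 ± 0.07 (adjusted p = 3.48e-19). Kcnd2, a transient-current subunit, fell from a median of 0.113 CPM (0 to 0.395) to 0.0674 CPM (0 to 0.388), by -0.69 ± 0.12 (adjusted p = 7.57e-08). Kcna1, a subunit of axonal membranes, was lower in males (-0.20 ± 0.04, adjusted p = 1.58e-06) and its partner Kcna2 higher (0.26 ± 0.03, adjusted p = 5.19e-13). Kcna5 did not pass the threshold (0.02 ± 0.05, adjusted p = 0.719).

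Among the inward rectifiers, 2 of 9 were higher and 2 lower in males, no more than the background of 24.4% and 30.6%. Kcnj3, a subunit of the G protein-gated channel of the heart atrium (chromosome 2, 55435970 to 55598145), had a median of 0.373 CPM in females (0 to 1.38) and 0.855 CPM in males (0.198 to 3.28). Its log2 difference was 1.21 ± 0.07 (2.32-fold, adjusted p = 3.85e-46), and 94.1% of males lay above the female median. Kcnj8, the ATP-sensitive pore subunit of blood vessels, was higher by 0.10 ± 0.03 (adjusted p = 0.00135), and Kcnj10 lower by 0.31 ± 0.09 in size (log2 difference -0.31, adjusted p = 0.00147).

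Among the leak channels, 3 of 7 were higher and 1 lower in males (background 24.4% and 30.6% of all genes). Kcnk1 (chromosome 8, 125995170 to 126030685) had a median of 0.338 CPM in females (0.052 to 1.19) and 0.608 CPM in males (0.0372 to 3.42), with a log2 difference of 1.05 ± 0.07 (2.06-fold, adjusted p = 3.74e-38). Kcnk2, a stretch-sensitive channel, was higher by 0.24 ± 0.04 (adjusted p = 2.40e-08). Kcnk3, an acid-sensitive channel also known from brown fat, had a fitted log2 difference of -0.71 ± 0.11 (adjusted p = 2.06e-09), but its medians ran the other way, 0.581 CPM in females (0.0746 to 10.99) and 0.612 CPM in males (0.0499 to 3.51). The fitted difference and the medians of Kcnk3 thus went in opposite directions, and 54.4% of males lay above the female median. With the 5 marker scores as covariates its difference was 0.22 ± 0.09 (adjusted p = 0.0436), in the opposite direction.

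Among the calcium- and sodium-activated channels, 2 of 8 were higher (Kcnt1 by 0.46 ± 0.08 and Kcnt2 by 0.43 ± 0.05) and 4 lower in males, where 24.4% and 30.6% of all genes were. Kcnu1, the large-conductance channel known from sperm, was counted in this group by its symbol. It had a median of 0.216 CPM in females (0 to 0.752) and 0.131 CPM in males (0 to 0.802), with a log2 difference of -0.69 ± 0.10 (adjusted p = 2.33e-10). Kcnn4, the intermediate-conductance channel of blood cells, had a median of 0.4001 CPM in females (0.107 to 6.83) and 0.352 CPM in males (0.0499 to 1.73), with a log2 difference of -0.50 ± 0.08 (adjusted p = 1.60e-09). Kcnn3 did not pass the threshold (0.09 ± 0.05, adjusted p = 0.113). Among the auxiliary subunits, 4 of 11 were higher (background 24.4%), among them Kcnab1 (0.42 ± 0.10, adjusted p = 4.38e-05) and the smooth muscle subunit Kcnmb1 (0.17 ± 0.05, adjusted p = 0.00228), and 3 were lower (background 30.6%), among them Kcnip2 (-0.40 ± 0.09, adjusted p = 2.01e-05) and Kcne3 (-0.20 ± 0.07, adjusted p = 0.00609).

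**Figure D2:**
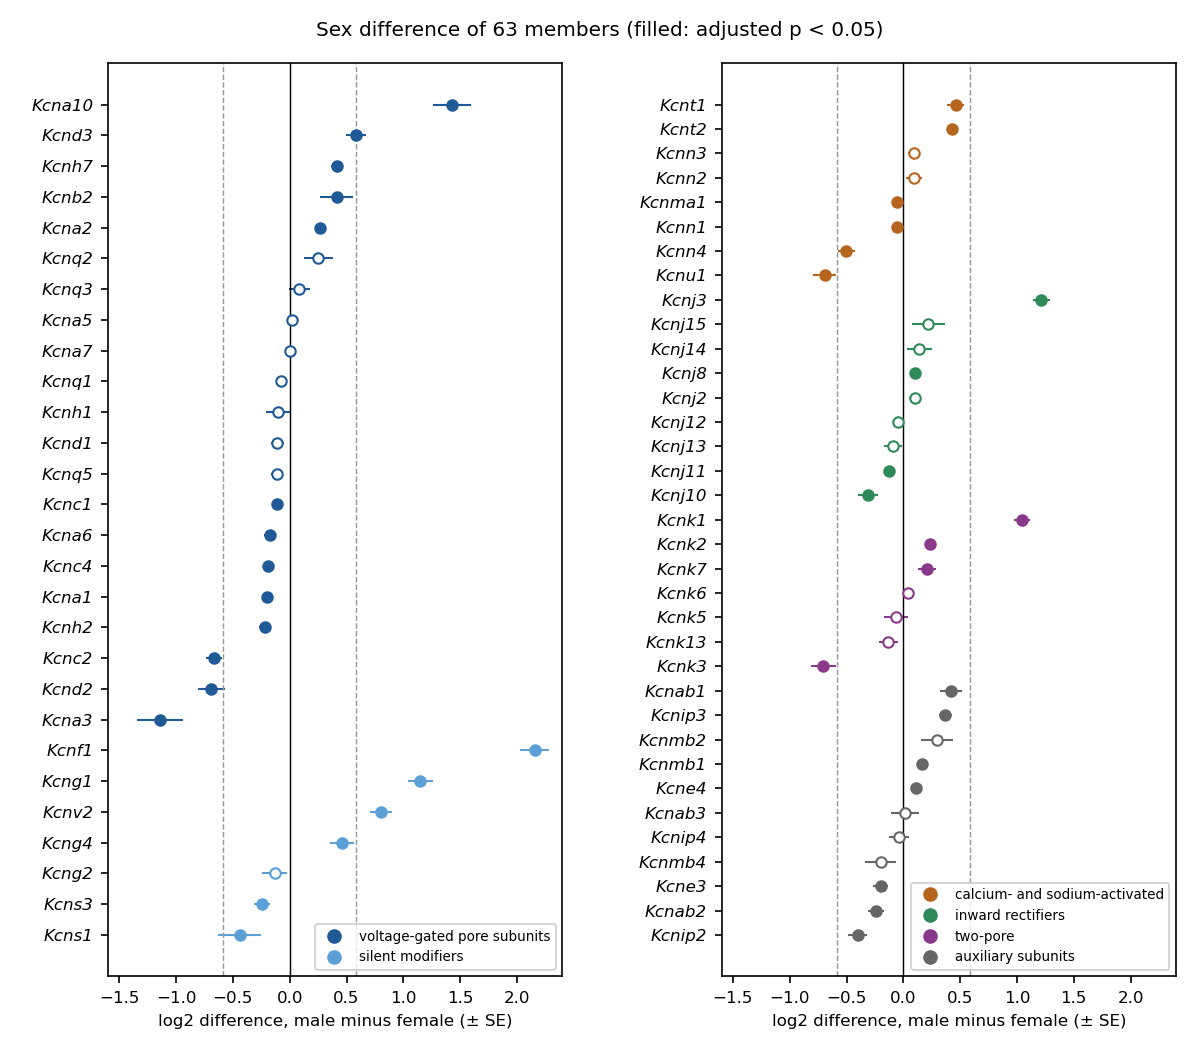
Log2 difference, male minus female, with its SE for 63 of the 66 members tested, grouped by role; filled points passed the threshold and dashed lines mark 1.5-fold. Kcnf1 stands at 2.15 and Kcna3 at -1.14, and Kcna7 lies at 0.

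Of the 42 members called, 34 had the same sign of the mean difference in all 5 generations and 32 in all 5 blocks of consecutive library numbers. Of the 11 with at least 1.5-fold, 11 and 10 did. These are parts of the same animals that gave the calls, so the agreement is no independent replication. It was not counted over all genes called. Fits within single blocks of 91 to 96 libraries called 17 to 22 members, where 19.7% to 28.6% of all genes were called. A fit with a term for block called 42 members and 55.7% of all genes. On the deposited variance-stabilised scale, which compresses low counts, limma called 42 members, of which 1 passed 1.5-fold, and 55.6% of all genes. With the 5 marker scores as covariates 37 members were called, 23 higher and 14 lower in males, and 42.4% of all genes. Among the members named for sex, Kcna3, Kcna6, Kcnab2, Kcne3, Kcnma1 and Kcnmb1 were then no longer called.

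**Figure D3:**
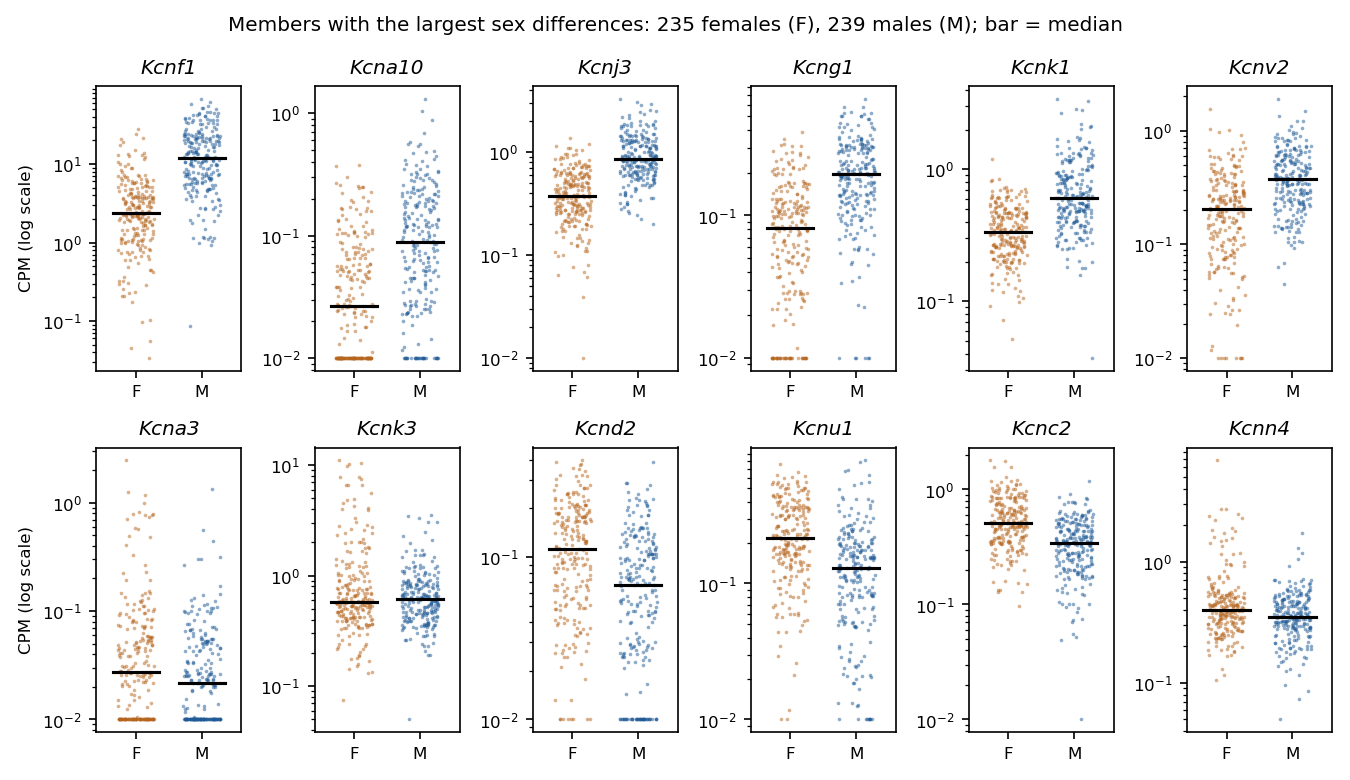
Level in each animal (CPM, log axis, values under 0.01 CPM drawn at 0.01) of the 6 members with the largest rise and the 6 with the largest fall in males, with the median of each sex as a bar. The sexes overlap in every panel, the medians of Kcnf1 are 2.37 and 12.1 CPM, and the medians of Kcnk3 lie close together while some females reach above 3.51 CPM, the highest male value.

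Kcna3, a voltage-gated channel known from lymphocytes, had the largest fall of the family, -1.14 ± 0.20 (adjusted p = 2.06e-07), but at a median of 2 counts in each sex. With the scores of 5 marker lists (slow fibre, adipocyte, Schwann cell, vascular smooth muscle and denervation) as covariates it was -0.53 ± 0.23 (adjusted p = 0.0556), no longer past the threshold. Its median was 0.0276 CPM in females (0 to 2.46) and 0.0216 CPM in males (0 to 1.35), and some libraries of each sex had a count of 0. Kcna3 varied together with Kcnn4 over animals, after sex and generation were removed, with Pearson r = 0.66 and Spearman rho = 0.29, and with the auxiliary subunit Kcnab2 (r = 0.62, rho = 0.28), and Kcnab2 with Kcnn4 (r = 0.62, rho = 0.25). These were the 3 largest correlations among the 2145 pairs of tested members. In females they were 0.77, 0.74 and 0.76 and in males 0.37, 0.35 and 0.24, and this difference was not tested. Spearman rho was less than r in each, and without the 2 libraries farthest from the median the first r was 0.61.

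A list of 10 lymphocyte markers was chosen after this pattern was seen, and 9 of them were tested. Their summed level had a median of 0.987 CPM in females (0.261 to 307.2) and 0.898 CPM in males (0.202 to 106.7), and 30 libraries, 21 female and 9 male, reached 10 CPM. Over all libraries the lymphocyte score had r = 0.76 (rho = 0.35) with Kcna3, 0.74 (0.33) with Kcnn4, 0.71 (0.32) with Kcnab2 and 0.46 (0.33) with Kcnk3, given as a description, since these genes and the list were chosen for this pattern. Without the 2 farthest libraries these r were 0.73, 0.71, 0.67 and 0.44. With the score removed as well, the correlation of Kcna3 with Kcnn4 was 0.22, of Kcna3 with Kcnab2 0.19 and of Kcnn4 with Kcnab2 0.20. With the 5 marker scores as covariates, the sex difference was -0.28 ± 0.09 for Kcnn4 (adjusted p = 0.00673) and 0.03 ± 0.08 for Kcnab2 (adjusted p = 0.788). With the lymphocyte score as a covariate, it was -0.28 ± 0.16 for Kcna3 (adjusted p = 0.132), 0.06 ± 0.05 for Kcnab2 (adjusted p = 0.325, -0.24 ± 0.07 without the score, although its medians were 0.866 CPM in females and 0.893 CPM in males), -0.16 ± 0.05 for Kcnn4 (adjusted p = 0.00523) and -0.51 ± 0.10 for Kcnk3 (adjusted p = 2.23e-06). Over the family, 14 of 66 members had a positive slope on the lymphocyte score (background 20.4%) and 12 a negative slope (background 21.7%).

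The slopes of the members on 5 further marker scores describe how channel genes move with the makeup of the muscle sample, with sex and generation as covariates. A slope is the log2 change per SD of the score. On the Schwann cell score, 9 of 66 members rose (13.6%, background 5.63%) and 2 fell (3.03%, background 6.35%). The steepest rises were those of Kcnmb4, a calcium-activated channel subunit of neurons (0.39 ± 0.07, adjusted p = 1.27e-06), Kcna6 (0.28 ± 0.02, adjusted p = 1.97e-30), Kcna1 (0.23 ± 0.02, adjusted p = 1.23e-35) and Kcnk1 (0.21 ± 0.03, adjusted p = 1.56e-07). The other rises were those of Kcna2, Kcne4, Kcnj13, Kcnj8 and Kcnmb1. Kcna3 (-0.36 ± 0.11, adjusted p = 0.0139) and Kcnn4 (-0.16 ± 0.04, adjusted p = 0.00126) fell, and the part of the lymphocyte score in these falls was not tested. With all 5 scores in 1 fit 7 members rose (background 2.26%) and 0 fell (0.707%), and in males alone 8 rose (2.55%) and 0 fell (0.319%), with Kcnk1 not called there.

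On the vascular smooth muscle score, 12 members rose (18.2%, background 8.11%) and 5 fell (7.58%, background 12.8%). Kcnmb1, the subunit that tunes Kcnma1 in smooth muscle, had the steepest rise (0.27 ± 0.02, adjusted p = 5.74e-27), followed by Kcnj14 (0.24 ± 0.06, adjusted p = 0.00113), Kcnk1 (0.13 ± 0.03, adjusted p = 0.00266) and Kcna1 (0.12 ± 0.02, adjusted p = 1.44e-08), and Kcnj8 and Kcna5, known from vessels, also rose. Kcna3 (-0.60 ± 0.10), Kcnk3 (-0.18 ± 0.06), Kcnab2 (-0.16 ± 0.04) and Kcnn4 (-0.16 ± 0.04) fell most. These 4 genes had r of 0.46 to 0.76 with the lymphocyte score, whose part in these slopes was not tested. In a fit with all 5 scores together, 4 members rose (background 4.93%) and 3 fell (7.35%), and in males alone 4 rose (5.12%) and 0 fell (4.88%), with Kcnk3 at 0.012. This score and the Schwann cell score had r = 0.39 and rho = 0.37 over all libraries, given as a description.

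On the adipocyte score, 17 members rose (25.8%, background 19.6%) and 8 fell (12.1%, background 17.5%). Kcna3 (0.98 ± 0.09, adjusted p = 2.75e-21), Kcnk3 (0.87 ± 0.03, adjusted p = 8.05e-88), Kcnj15 (0.73 ± 0.07, adjusted p = 1.03e-20) and Kcnj14 (0.69 ± 0.05, adjusted p = 5.82e-33) rose most. On residuals, r with the adipocyte score was 0.27 for Kcna3, which has few counts, and 0.68 for Kcnk3. Their r with the lymphocyte score was 0.76 and 0.46, and the part of that score in these slopes was not tested. Kcnmb2 (-0.21 ± 0.07, adjusted p = 0.0163), Kcnq3 (-0.16 ± 0.05, adjusted p = 0.00405), Kcnc1 (-0.06 ± 0.02, adjusted p = 0.000987) and Kcnma1 (-0.05 ± 0.01, adjusted p = 0.000114) fell most, and Kcna7 and Kcnj11 were among the other falls. With scaling by total count alone, 20 members rose (30.3%), which was no longer above the background (32.1%), and 2 fell instead of 8 (background 1.85%), and with males alone 1 did (4.97%).

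On the slow-fibre score, 3 members rose (4.55%, background 3.81%) and 3 fell (4.55%, background 2.64%). Kcnn3, a small-conductance calcium-activated channel (0.12 ± 0.03, adjusted p = 0.00117), Kcnj2 (0.09 ± 0.03, adjusted p = 0.0323) and Kcnma1 (0.06 ± 0.01, adjusted p = 0.00017) rose, and Kcnk1 (-0.15 ± 0.04, adjusted p = 0.00475) and Kcnh7 (-0.10 ± 0.03, adjusted p = 0.026) were among the falls. Kcnh7 overlaps Gca on the opposite strand. In females alone 5 members fell on this score (background 4.11%), and in males alone 1 did (0.547%). On the denervation score, 4 rose (6.06%, background 6.98%) and 6 fell (9.09%, background 9.90%), with Kcna1 (0.06 ± 0.02, adjusted p = 0.0156) and Kcnma1 (0.05 ± 0.01, adjusted p = 0.00024) the largest rises, and Kcnn1 (0.03 ± 0.01) also among them. Kcna3 (-0.80 ± 0.10), Kcnab2 (-0.22 ± 0.04), Kcnj15 (-0.21 ± 0.07) and Kcnn4 (-0.19 ± 0.04) fell most. The part of the lymphocyte score in the slopes of Kcna3, Kcnab2 and Kcnn4 was not tested. With all 5 scores in 1 fit 1 member rose (background 3.16%) and 3 fell (3.65%) on the denervation score, and in males alone 0 rose (1.48%) and 1 fell (2.20%).

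**Figure D4:**
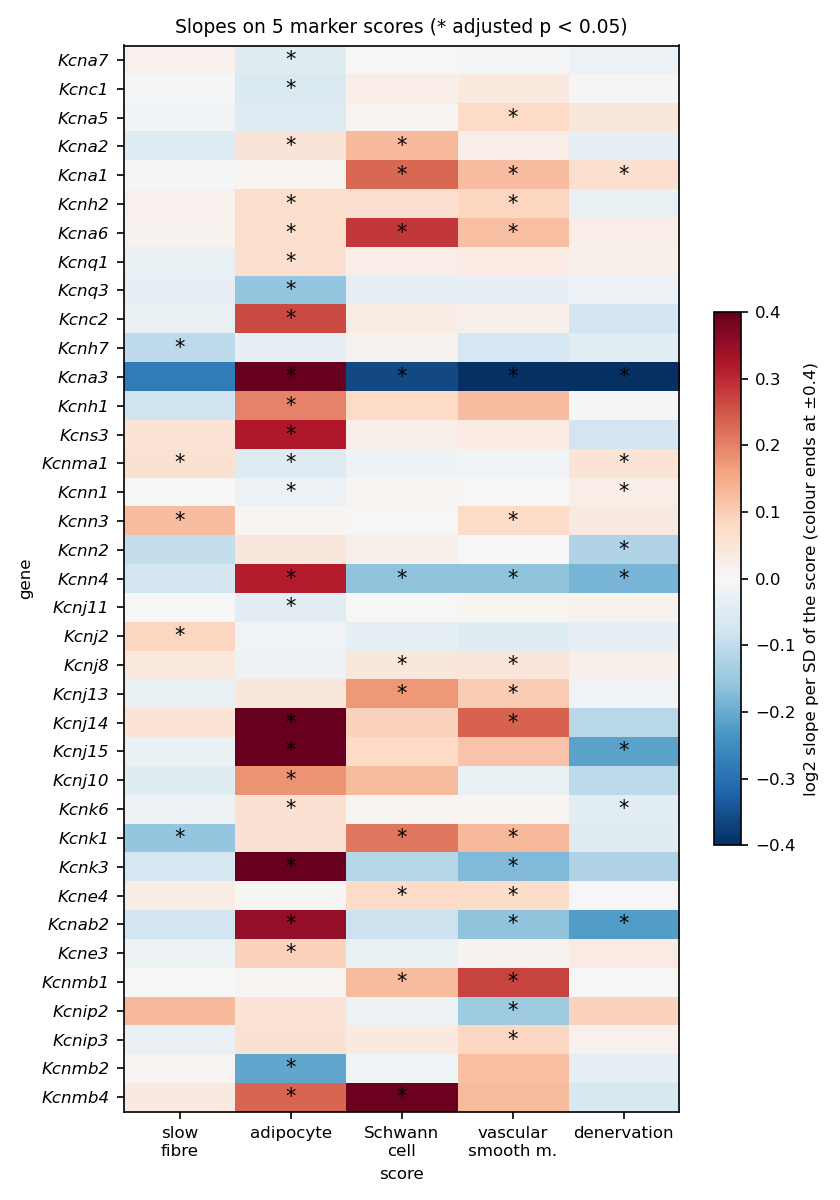
Log2 slope per SD of 5 marker scores (columns) for 37 members with at least 1 slope past the threshold (rows, ordered by role), with asterisks where the adjusted p was under 0.05 and colours ending at 0.4 in either direction. Kcna3 is positive on the adipocyte score (0.98) and negative on the Schwann cell (-0.36), vascular smooth muscle (-0.60) and denervation (-0.80) scores, and Kcna1 and Kcna6 are positive on the Schwann cell score.

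Generations differed for 3 of 66 members (4.55%, background 7.56%). Kcne4, an auxiliary subunit, had medians of 1.41, 1.65, 2.20, 1.83 and 1.80 CPM in generations 17, 18, 19, 21 and 23, with a fitted range of 0.60 on the log2 scale (adjusted p = 3.90e-14), lowest in 17 and highest in 19. Kcnk7 had a range of 0.51 (adjusted p = 0.00941) at a mean of 0.149 CPM, and Kcnk6 a range of 0.15 (adjusted p = 0.0236). The interaction of sex and generation passed the threshold for 0 of 66 members (0.00%, background 0.531%) with edgeR and 0 with limma on the deposited values, and had an unadjusted p under 0.05 for 4 and 5 of 66, where 5.97% and 4.62% of all genes had one.

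Some members were spread over animals far more than others. On the deposited scale, the SD left after sex and generation was largest for Kcng4 (1.19), Kcnf1 (0.995), Kcnab1 (0.887), Kcnk5 (0.653) and Kcnq5 (0.579), and smallest for Kcnn1 (0.159), Kcnk7 (0.165) and Kcnd1 (0.168), the last pair at means of 0.149 and 0.340 CPM, where that scale compresses counts. On the count scale the biological coefficient of variation of Kcng4 was 0.797, of Kcnf1 0.873, of Kcnab1 0.693 and of Kcnk5 0.761, where the trend at their levels was 0.256, 0.278, 0.261 and 0.437, and that of Kcnn1 was 0.126 against 0.262, the smallest of the tested members. Kcnk7 had 0.510 and Kcnd1 0.359 on this scale, and the largest were Kcna3 (1.66), Kcns1 (1.45) and Kcna10 (1.20), at means under 1 CPM.

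Kcnk5, an acid-sensitive leak channel (chromosome 14, 20140057 to 20181809), split the animals into separate ranges. It lay at or above 3.03 CPM in 122 animals (25.7%) and at or below 2.54 CPM in all others. Of the 122, 60 were female and 62 male, and each generation had 21 to 27 animals in the upper range. Kcng4 (chromosome 8, 119623854 to 119635680) lay between 0.0735 and 1.69 CPM in 36 animals and between 2.03 and 72.4 CPM in the other 92.4%. Of the 36, 26 were female and 10 male. The widest gap that left at least 5% of animals on each side was 0.25 on the log2(CPM + 0.05) scale for Kcnk5 and 0.26 for Kcng4, and 0.02 for Kcna7, whose animals ran from 83.8 to 214.9 CPM.

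**Figure D5:**
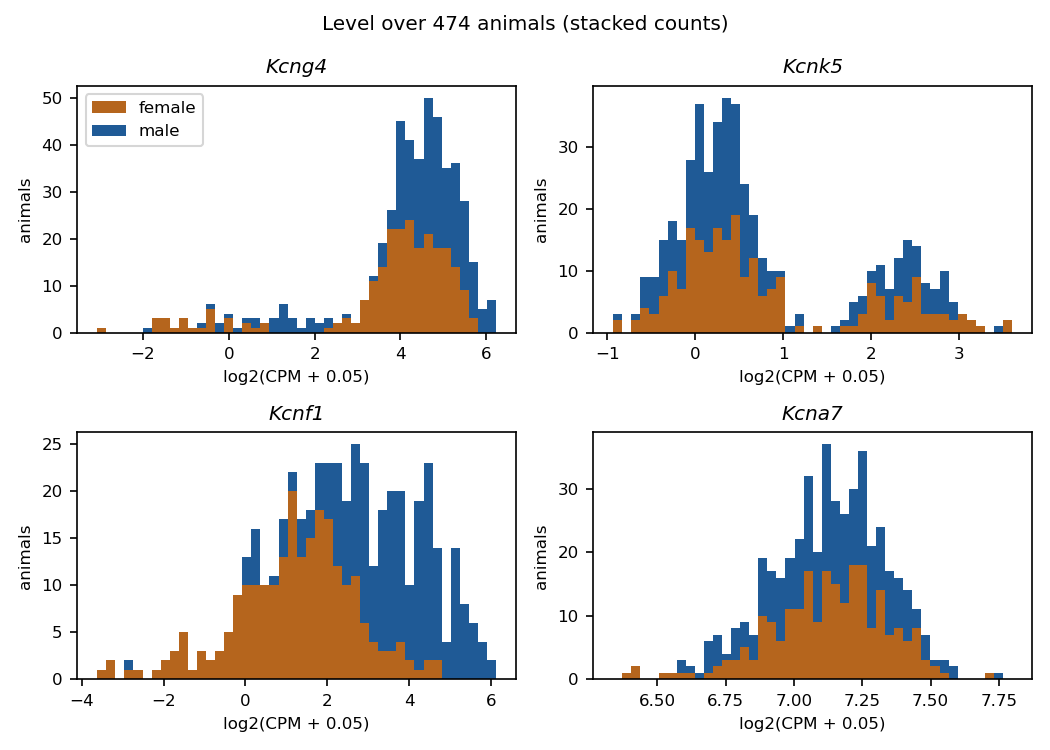
Number of animals (stacked by sex) by level of Kcng4, Kcnk5, Kcnf1 and Kcna7, on a log2(CPM + 0.05) axis. Kcnk5 has separate lower and upper ranges with 122 animals at or above 3.03 CPM, Kcng4 a tail of 36 animals at or below 1.69 CPM, and Kcnf1 a broad shape in which males lie higher.

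For these members the genes with the most similar pattern over all animals, among all tested genes and by absolute Pearson r on residuals, often lay on the same chromosome. For Kcng4 they were Wfdc1 (r = 0.75, 0.0425 Mb away), A330074K22Rik (0.66, 0.581 Mb) and Meak7 (0.56, 0.136 Mb), all on chromosome 8. For Kcnk5 they were Gm2974 (r = 0.81), Gm3383 (0.78) and Gm3194 (0.78), which lie 14.5 to 15.96 Mb away on chromosome 14 and whose counts are uncertain, since reads of such models may be shared with near-identical copies. For Kcnf1 they were Odc1, the first enzyme of polyamine synthesis (r = 0.58, 0.373 Mb away on chromosome 12), 1700001O22Rik (0.51) and Acsl3 (0.50) on other chromosomes, and r with Odc1 was 0.40 in females and 0.67 in males. Kcnab1 had Strit1 first (r = 0.30, 1.63 Mb away on chromosome 3), and Kcnq5 was most like Tmem14a with the opposite sign (-0.33, 0.18 Mb away on chromosome 1). Within the 5 blocks, r with the first gene ranged from 0.69 to 0.82 for Kcng4, from 0.76 to 0.86 for Kcnk5 and from 0.52 to 0.68 for Kcnf1.

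The spread between animals was wider in males for 3 of 66 members (4.55%, background 1.75%) and wider in females for 4 (6.06%, background 3.80%). Kcnk1 (difference in mean absolute deviation 0.10 ± 0.02 on the deposited scale, adjusted p = 9.17e-07), Kcnip3 (0.04 ± 0.01, adjusted p = 0.00523) and Kcnf1 (0.23 ± 0.06, adjusted p = 0.00537) were wider in males. Kcnk3 (-0.17 ± 0.04, adjusted p = 0.000668), Kcnab2 (-0.09 ± 0.02, adjusted p = 0.0065), Kcnn4 (-0.06 ± 0.02, adjusted p = 0.0365) and Kcns1 (-0.09 ± 0.03, adjusted p = 0.0394) were wider in females. On the log2 CPM scale 0 members were wider in males, and Kcnf1 had a difference of -0.05 (adjusted p = 0.896). The share of all genes was not counted on that scale, so this 0 has no background.

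Whether subunits known to form channels together vary together was asked for 19 pairs, on residuals after sex and generation in all animals, with permutation p-values adjusted over the 19. Kcnj11 and Abcc8, the pore and a regulatory subunit of the ATP-sensitive channel, whose genes start 0.0106 Mb apart on chromosome 7, had r = 0.46 and rho = 0.42 (each p = 1e-05, the smallest that 100000 resamples can give, adjusted permutation p = 4.75e-05). Kcna1 and Kcna2, which form axonal channels, had r = 0.33 and rho = 0.33 (adjusted permutation p = 4.75e-05 for both), and r = 0.16 once library block and the 5 marker scores were also removed. Kcnj2 and Kcnj12, both classic inward rectifiers, had r = -0.25 and rho = -0.23 (adjusted permutation p = 4.75e-05 for both). Kcnj8 and Abcc9, the vascular ATP-sensitive pair, whose genes start 0.023 Mb apart, had r = -0.23 and rho = -0.20 (adjusted permutation p = 4.75e-05 for both). Kcna1 and Kcnab2 had r = -0.17 and rho = -0.14 (adjusted permutation p = 0.000418 and 0.00847).

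The other 14 pairs did not pass the threshold by r. They included Kcnma1 with Kcnmb1 (r = 0.05, rho = 0.04, adjusted permutation p = 0.565 and 0.632) and Kcnc4 with Kcne3 (r = 0.01, rho = 0.03, adjusted permutation p = 0.876 and 0.632). Kcnj11 with Abcc9 was also among them (r = 0.02, rho = 0.06, adjusted permutation p = 0.869 and 0.565), with r from -0.23 to 0.26 within blocks. Without the 2 animals farthest from the median of the first gene, the 5 called pairs had r = 0.44, 0.33, -0.25, -0.23 and -0.18 in the order given. Within blocks r ranged from 0.33 to 0.56 for Kcnj11 with Abcc8, from 0.20 to 0.47 for Kcna1 with Kcna2, and from -0.33 to -0.15 for Kcnj2 with Kcnj12. It ranged from -0.38 to 0.00 for Kcnj8 with Abcc9, and Kcna1 with Kcnab2 had -0.31 in females and 0.03 in males. Abcc9 overlaps another gene on the opposite strand.

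Over all 2145 pairs of members, given as a description, 21 had an absolute r of at least 0.3 and the median absolute r was 0.05. Apart from the pairs among Kcna3, Kcnn4 and Kcnab2 the largest were Kcna7 with Kcnc1 (r = 0.49, rho = 0.46, starts 0.991 Mb apart on chromosome 7), Kcnab2 with Kcnk3 (0.40, 0.34, and r = 0.12 with the lymphocyte score also removed) and Kcnd3 with Kcna10 (0.39, 0.37, starts 1.73 Mb apart on chromosome 3). For Kcna7 with Kcnc1, r was 0.45 to 0.53 within blocks. Among pairs of members that start within 1 Mb of each other, r ranged from -0.05 (Kcnc4 with Kcna2) to 0.49 (Kcna7 with Kcnc1). The points share libraries. Neighbouring genes are inherited together in these mice, and the part of this in the correlations was not tested.

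Genes outside the family that work with these channels were read from fixed lists. Of 10 channel partners tested, 4 were higher in males, 2 lower and 4 did not pass, where 24.4% of all genes were higher and 30.6% lower, with a median log2 difference of 0.04 (all genes: -0.01). Abcc8 had 4.70 ± 1.70 CPM (SD) in females and 2.50 ± 0.915 CPM in males, a log2 difference of -0.91 ± 0.05 (adjusted p = 1.48e-58), while its pore partner Kcnj11 differed by -0.13 and Abcc9, at 371.7 and 376.5 CPM, by 0.02 ± 0.01 (adjusted p = 0.3). Lrrc55, a modifier of Kcnma1 channels, overlaps other genes on the opposite strand and was lower (-0.58 ± 0.08), and Dpp6, a partner of Kcnd channels, higher (0.40 ± 0.05).

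Of 22 other excitability genes, 7 were higher in males, 8 lower and 7 did not pass, where 24.4% of all genes were higher and 30.6% lower, with a median log2 difference of -0.02. Among the larger differences were those of the pacemaker channels Hcn4 (-0.42 ± 0.06, adjusted p = 2.79e-10) and Hcn2 (0.35 ± 0.06, adjusted p = 5.05e-08) and the sodium pump subunit Atp1b2 (-0.25 ± 0.03, adjusted p = 3.31e-18). Among genes named for their place in the fibre membrane, after their values were seen, the muscle sodium channel Scn4a (0.12 ± 0.01, adjusted p = 1.44e-18) and the chloride channel Clcn1 (0.15 ± 0.02, adjusted p = 1.03e-14) were higher in males, and the calcium channel Cacna1s (-0.16 ± 0.02, adjusted p = 2.98e-19) was lower.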

How the data were processed

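RNA of 474 mice was measured by poly(A) RNA-seq, with 1 library per animal. Per the study's methods, the authors joined both read ends as single reads, aligned them to a transcriptome of the 8 founder strains and made expected counts per gene with EMASE in GBRS, so that a fragment can count more than once. Genes with few reads were removed by the authors before deposit. A second table deposited by the authors holds a score, the output of the variance-stabilising transform of DESeq2, which approaches log2 at high counts. The study's methods state that batch was regressed out. Compared with the counts, these values were shifted gene by gene in 5 sets of libraries (49.4% and 47.9% of them, and 13 others), by up to 0.0489 between the large sets for the 40 members with a mean of 20 to 2000 counts. Differences, SDs and correlations on that scale are therefore of adjusted values, whereas the counts were tested without this step. The versions of EMASE and GBRS and the use of strand in counting are not given in the sources used here. Of the deposited counts, 68.6% were whole to within 1e-06, and all were rounded here.

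Sex and generation were taken from the labels. Genes were kept by filterByExpr of edgeR 4.0.16 with a minimum count of 10, scaled by TMM (factors 0.871 to 1.29) and tested by the quasi-likelihood test in R 4.3.3 with sex and generation as terms. P-values were adjusted by Benjamini-Hochberg across every gene that was kept, called at 0.05, and were two-sided. SEs of log2 differences were derived from the F statistic. CPM used TMM-scaled totals, and exon lengths came from GENCODE. Differences in spread were tested with limma 3.58.1 on absolute deviations of the deposited values. Slopes used marker scores, each the mean of standardised log2 levels of a list. Correlations used residuals after sex and generation, with 100000 resamples. Blocks are runs of consecutive library numbers in the titles, and the labels do not say that they are sequencing batches. Steps were tested on simulated data. Alternatives were DESeq2 1.42.0, limma on the deposited values, other scalings and filters, added covariates (the lymphocyte score and library sets chosen after seeing the data), and fits within blocks or sexes.

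The members and gene lists were chosen with earlier results of these data known. Named members were the most abundant 12, the 6 largest rises and 6 largest falls by sex, up to 6 by generation or spread, 4 in each direction per score, the 5 most and 3 least variable, and a fixed set of muscle channels. Other members named within the role groups were added after their values were seen, as was the lymphocyte list. Values of a few genes are not reported here, in the text or the figures, while counts cover all members.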

Additional observations from a re-analysis of the deposited data

How the results depend on the processing

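The threshold for mean level and the number of libraries moved the counts of the sex difference most. Among members with a mean of at least 1 CPM, 17 of 28 were called, 8 higher and 9 lower in males, with 1 at 1.5-fold, where 63.5% of all genes with such a mean were called, and limma on the deposited values also left 1 at 1.5-fold. Within blocks 1 to 5 the members called were 17, 20, 22, 22 and 19, with 3, 5, 8, 12 and 6 lower in males, and 10 and 13 higher in blocks 4 and 5. Over both directions 19.7%, 22.7%, 24.4%, 28.6% and 23.2% of all genes were called in these blocks. Shares of all genes by direction were not counted there, so the splits by direction have no background. The fits above had fewer genes or fewer samples. Over the single members named for sex, 72 alternative values lost the call, 6 reversed and the others kept direction and call. The reversed values were Kcnk3 at 0.22 and Kcnab2 at 0.032 with the 5 scores, Kcnab2 at 0.023 within block 1 and 0.063 with the lymphocyte score, Kcne3 at 0.0011 within block 2 and Kcnma1 at 0.018 within block 4, and the cause was not tested. DESeq2 called 43 members and 55.8% of all genes. With the library sets of the deposited values as a covariate, chosen after seeing the data, 41 members were called for sex, with Kcnma1 lost, and 3 for generation (55.1% and 7.59% of all genes). With the 5 scores the split was 23 higher and 14 lower.

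Scaling by total count alone gave 5 members for generation (background 8.88%) and 2 falls on the adipocyte score. For spread, the log2 CPM scale gave 0 members wider in males, with no share of all genes counted, and a Kcnf1 difference of -0.046. With all 5 scores in 1 fit, 0 members fell on the Schwann cell score, 4 rose and 3 fell on the vascular smooth muscle score, and 1 rose and 3 fell on the denervation score. With limma, 1 fell on the Schwann cell score (background 5.44%) and 2 on the vascular smooth muscle score (11.3%). In females alone, 5 fell on the slow-fibre score, 5 rose on the vascular smooth muscle score (background 3.24%) and 2 rose on the denervation score (4.64%). In males alone, 1 fell on the slow-fibre score, and 9 rose (13.6%, background 10.1%) and 1 fell on the adipocyte score. Also in males alone, 0 fell on the Schwann cell score, and 4 rose and 0 fell on the vascular smooth muscle score (Kcnk3: 0.012). On the denervation score 0 rose and 1 fell in males alone. Subunit pairs past the threshold numbered 3, 1, 3 and 2 within blocks 1, 3, 4 and 5, against 5 in all animals, with Kcnj8 and Abcc9 at 0.00091 within block 5 and Kcna1 and Kcnab2 at 0.034 in males.

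No paired analysis was possible because each animal has its own number and none is shared between groups. Members under 1 CPM rest on few counts, so that folds of Kcna10 and Kcna3, with median counts of 2 to 7, are the least certain by depth.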
